A study of Mus musculus with 5 samples.

Results

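Gzmc, Gzmd, Gzme, Gzmf and Gzmg are 5 neighboring mouse genes that encode granzymes C, D, E, F and G. They were taken by symbol from the feature list of the T cell libraries, where they are 5 of 32285 features, and each symbol was present once. They were put together because their UMIs (unique molecular identifiers, each counting 1 captured RNA molecule) were already known to be higher in the library of DOX resistant tumors, so their difference between libraries is described here and not tested.

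Tumors were grown from 4T1 cells, a mouse mammary cancer line carrying Thy1.1, in the mammary fat pad of female BALB/c mice, and the labels give an age of 12 weeks. Once tumors were established, mice received doxorubicin (DOX) intravenously at 5 mg/kg in 3 doses, 3 days apart, and the tumors whose growth continued were called resistant and those whose growth was inhibited sensitive. T cells of DOX-treated tumors were enriched by magnetic depletion of other cells and of Thy1.1 cancer cells, and droplet single-cell RNA sequencing was done on 1 resistant and 1 sensitive library. Per the methods, cells of 3 tumors were pooled in each library, so tumors cannot be told apart within a library, and no replicate stands behind a difference between the libraries. Both T cell libraries came from DOX-treated mice, so no T cell library from an untreated mouse stands beside them. Library differences such as handling cannot be told apart from response to DOX. Small libraries of whole tumor, titled resistant, sensitive and control (saline), are described at the end.

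Granzymes are serine proteases that cytotoxic lymphocytes store in secretory granules and release, together with the pore-forming protein perforin, toward a target cell. Granzyme B starts apoptosis by cleaving caspases and their substrates, while granzymes C to G are rodent relatives whose substrates are less well known. Granzyme C can kill cells in vitro, and these genes are known from strongly activated CD8+ T cells, natural killer (NK) cells and, for several of them, cells of the pregnant uterus.

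In the GENCODE annotation of GRCm38 (mm10) the members lie on the minus strand of chromosome 14, on either side of Gzmn and next to Gzmb. By coordinate the order is Gzme (56117626 to 56120625), Gzmd (56129556 to 56132608), Gzmg (56156582 to 56159579), Gzmn (56165797 to 56174599), Gzmf (56205263 to 56211417), Gzmc (56231441 to 56234656) and Gzmb (56258838 to 56262260). The stretch spans 144.635 kb and holds no protein-coding gene other than these 7. Each member has 5 exons. Their identifiers in the files are ENSMUSG00000079186 (Gzmc), ENSMUSG00000059256 (Gzmd), ENSMUSG00000022156 (Gzme), ENSMUSG00000015441 (Gzmf) and ENSMUSG00000040284 (Gzmg).

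The start regions of the 5 genes are shown because they are alike. Pairs of members were 84.4% to 95.6% identical over 225 to 249 aligned bases before the start. No identity value was obtained for either neighbor, Gzmn or Gzmb, against a member. Gzmn was near silent in CD8 and NK cells and Gzmb was not, and a link between likeness of start regions and expression was not tested. The sequences are from RefSeq (GRCm38.p6, minus strand), run 5′ to 3′ over 105 bases that end between 14 and 39 bases before the annotated RefSeq start, and lie at chr14:56234671-56234775 for Gzmc, chr14:56211446-56211550 for Gzmf, chr14:56159613-56159717 for Gzmg, chr14:56132611-56132715 for Gzmd and chr14:56120644-56120748 for Gzme. Capitals mark TGTGGT, the letters bound by RUNX factors, and then the 8 bases at the place where Gzmc, Gzmf and Gzmg carry TGACGTCA, the palindrome bound by CREB and ATF factors.
Gzmc: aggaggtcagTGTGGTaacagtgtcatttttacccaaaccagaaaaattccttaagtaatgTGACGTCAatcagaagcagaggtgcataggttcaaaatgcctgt
Gzmf: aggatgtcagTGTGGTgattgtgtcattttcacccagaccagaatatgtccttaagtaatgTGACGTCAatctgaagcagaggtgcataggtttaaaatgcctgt
Gzmg: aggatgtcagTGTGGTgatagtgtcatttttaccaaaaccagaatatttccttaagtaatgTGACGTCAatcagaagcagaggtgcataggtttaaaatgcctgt
Gzmd: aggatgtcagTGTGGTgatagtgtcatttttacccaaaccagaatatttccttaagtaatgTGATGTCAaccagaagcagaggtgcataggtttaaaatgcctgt
Gzme: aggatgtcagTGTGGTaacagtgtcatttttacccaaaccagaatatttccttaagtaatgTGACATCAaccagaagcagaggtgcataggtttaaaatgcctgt

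The lines for Gzmd and Gzme differ from TGACGTCA by C4T and G5A respectively, with positions counted from 1 at the 5′ end of these 8 bases. TGTGGT, searched on both strands of the 250 bases before the start, was found in 5 of 5 members and in 14% of all 32851 RefSeq start windows of that length. TGACGTCA was found in 3 of 5 members and in 1.55% of all windows. The longest run shared by all 5 members, 20 bases, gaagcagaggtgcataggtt, was in no other window. Since the 5 windows are alike, matches in them are not independent. The neighboring Gzmb also had TGTGGT in its window, as well as TGANTCA (AP-1), and neither TGACGTCA nor the 20-base run. TGANTCA (6.75% of all windows), TTCNNNGAA (STAT, 7.02%) and AGGTGTGA (T-box, 1.12%) were in none of the 5 windows. No overlap between motifs was excluded, and a match is a description of letters only. The window of Gzmn held neither TGTGGT nor the 20-base run. Over their transcripts, Gzmd and Gzme are 94.8% identical and share a run of 96 bases, whereas Gzmc is 74.0% to 75.2% identical to the other members. In the last 300 bases, where reads of a 3′ library fall, Gzmd and Gzme are 95.4% identical. Reads of such copies may have been split or lost among members in counting, and levels of Gzmd and Gzme in particular are uncertain for that reason.

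The resistant library held 6116 barcodes and 35908799 UMIs, of which 3091 cells were kept, and the sensitive library held 3949 barcodes and 31690845 UMIs, of which 3448 were kept. The resistant library lost 1618 barcodes to a limit of 10% mitochondrial UMIs and the sensitive library 123, and the median mitochondrial share over all barcodes was 8.95% and 2.47%. The libraries shared 31 cell barcodes, of which 18 were kept in the resistant and 30 in the sensitive library. Results for the summed members are therefore also given without these barcodes. Cells were assigned to lineages by gates on a few genes. CD8 cells, with a Cd3e and a Cd8a UMI and none of Cd4 or Foxp3, numbered 1567 in the resistant and 1275 in the sensitive library, with a median of 4790 and 4136 UMIs. Cd8b1, which the gate did not use, was found in 97.4% and 96.6% of them. NK cells, with an Ncr1 and no Cd3e UMI, numbered 50 and 94, with a median of 4608.5 and 4804.5 UMIs. Cd3d was found in 0% and 5.32% of the NK gate, Klrb1c (NK1.1) in 44.0% and 41.5%, and Eomes in 52.0% and 35.1%, so the gate rests mainly on Ncr1, which group 1 innate lymphoid cells also express. CD4 cells numbered 53 and 195, regulatory T cells 11 and 53, and gamma-delta T cells 17 and 80. Fibroblasts, gated on collagen genes (538 and 749 cells, median 13656 and 13460 UMIs), are given below as cells that should lack granzymes.

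Most transcripts of the cluster lay in CD8 and NK cells of both libraries, and NK cells had the highest summed level. CD4 cells carried a member about as often as CD8 cells, at lower levels. Over all kept cells, 11828 member UMIs were counted in 257 of 3091 cells of the resistant library and 2840 in 115 of 3448 cells of the sensitive library. CD8 cells held 65.5% of these UMIs in the resistant library (64.6 to 66.3) and 58.7% in the sensitive library (56.9 to 60.6), where brackets give 95% Clopper-Pearson intervals. These shares rested on few cells and became 36.2% and 9.71% without the top 1% of CD8 cells. NK cells held a further 27.4% and 32.1%, although they were 50 and 94 cells. Levels below are CPM, a gene's UMIs per 1000000 UMIs of the gated cells. A 3′ UMI is counted once per molecule, so these levels need no division by transcript length. All intervals and floors cover counting error only, and UMIs of the same cell are not independent, so true uncertainty is wider.

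Gzmc and Gzmf were the most abundant members in CD8 cells, for Gzmc in the sensitive library only through 1 cell. Gzmc stood at 277 CPM (2763 UMIs in 121 cells) in the resistant and 116 CPM (784 UMIs in 40 cells) in the sensitive library. Gzmf stood at 290 CPM (2884 UMIs in 107 cells) and 78.3 CPM (527 UMIs in 24 cells). In the resistant library these levels were close to each other. In the sensitive library a single CD8 cell held 684 of the 784 Gzmc UMIs. Without it Gzmc stood at 14.9 CPM, below the levels of Gzmf, Gzmd and Gzme given here. Gzmd was at 90.0 CPM (896 UMIs in 36 cells) and 31.6 CPM (213 UMIs in 12 cells). Gzme was at 78.0 CPM (777 UMIs in 35 cells) and 19.3 CPM (130 UMIs in 8 cells). Gzmg, the rarest member, was at 42.7 CPM (425 UMIs in 12 cells) and 2.08 CPM (14 UMIs in 2 cells). For comparison, Gzmb stood at 772 and 1373 CPM in the same cells, and Gzmn, which lies between Gzmg and Gzmf, at 1 and 0 UMIs.

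In NK cells the order was different, with Gzmc far ahead of the other members. Gzmc reached 7062 CPM (2691 UMIs in 24 of 50 cells) in the resistant and 1329 CPM (774 UMIs in 20 of 94 cells) in the sensitive library. Gzmd was at 905 CPM (9 cells) and 112 CPM (6 cells), and Gzme at 381 CPM (7 cells) and 34.3 CPM (5 cells). Gzmc made up 83.1% and 84.8% of the member UMIs of NK cells, against 35.7% and 47.0% in CD8 cells. Without the cell with 684 Gzmc UMIs the share in CD8 cells of the sensitive library was 10.2%. Gzmf was the reverse, with 0.803% and 5.81% of member UMIs in NK cells against 37.2% and 31.6% in CD8 cells. Of all Gzmf UMIs, 91.8% and 84.9% lay in CD8 cells.

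Set against CD8 cells of the same library, Gzmc was 25.5-fold higher in NK cells of the resistant library (24.1 to 26.9) and 11.4-fold higher in those of the sensitive library (10.3 to 12.6), where leaving out the CD8 cell with 684 Gzmc UMIs moved the ratio to 89.3. Brackets after ratios of CPM give exact conditional binomial 95% intervals. The NK over CD8 ratio was lower for Gzmd, at 10.1 (8.86 to 11.4) and 3.53 (2.63 to 4.68), and for Gzme, at 4.88 (4.06 to 5.83) and 1.78 (1.05 to 2.86). Single cells moved these too, and in the sensitive library leaving out the highest CD8 cell or the highest NK cell for the member gave 10.0 or 2.03 for Gzmd and 6.59 or 1.01 for Gzme. Gzmf was lower in NK than in CD8 cells of the resistant library, at 0.236 (0.154 to 0.346), and at 1.16 (0.860 to 1.54) in the sensitive library, where 1 NK cell held 49 of the 53 Gzmf UMIs. Without that cell the ratio was 0.0888 (0.0241 to 0.229), and without the CD8 cell that held 195 of the 527 Gzmf UMIs it was 1.84 (1.35 to 2.47). Gzmb, the established NK and CD8 effector protease, gave 2.63 (2.44 to 2.83) and 0.905 (0.837 to 0.976). Gzmg, at 78.7 CPM (30 UMIs) and 1.72 CPM (1 UMI) in NK cells, gave 1.85 (1.23 to 2.67) and 0.826 (0.0195 to 5.43). A single NK cell of the resistant library held 19 of the 30 Gzmg UMIs, and without it the ratio was 0.723 (0.358 to 1.31). Without the CD8 cell that held 234 of the 425 Gzmg UMIs it was 4.10 (2.69 to 6.04).

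**Figure D1:**
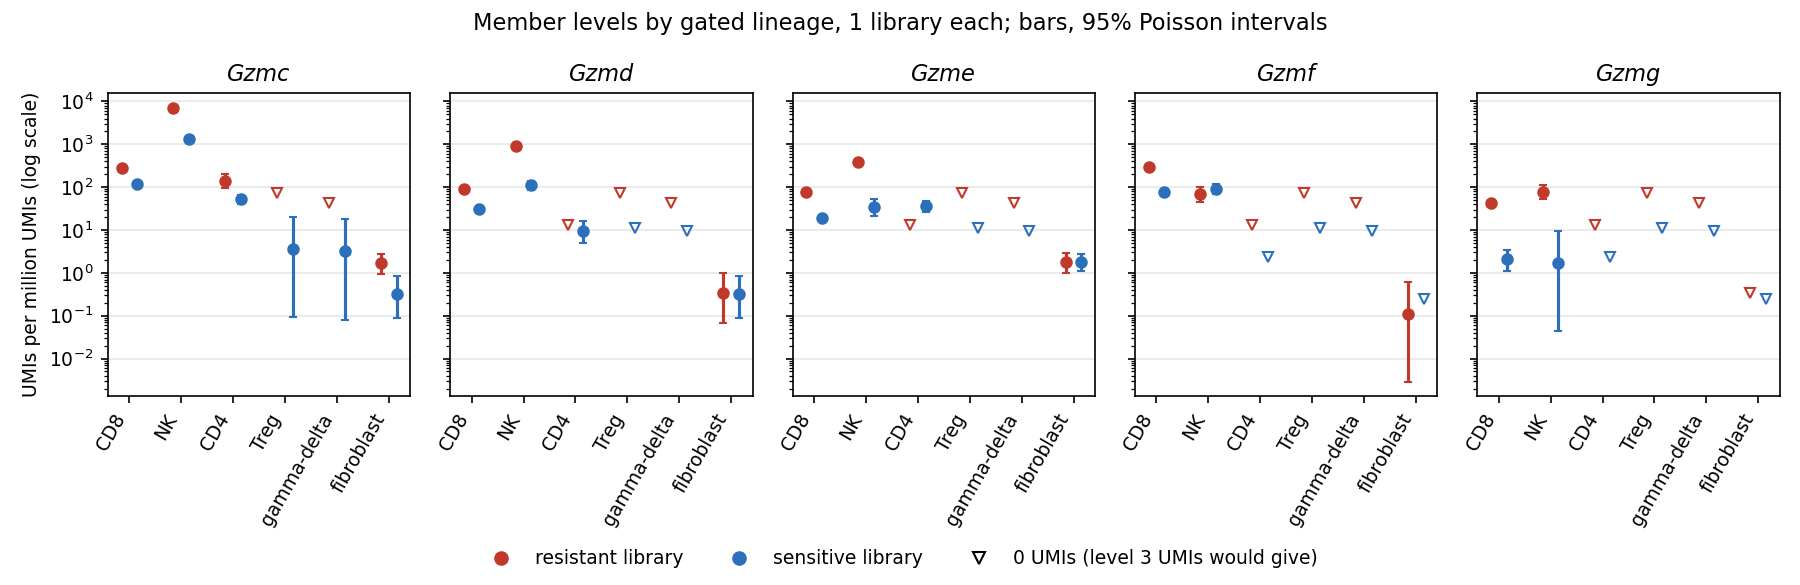
Level of each member by gated lineage as CPM on a log axis, with 95% Poisson intervals, in the resistant (red) and sensitive (blue) library; open triangles stand for 0 UMIs and mark the level that 3 UMIs would give. Gzmc peaks in NK cells at 7062 and 1329 CPM, Gzmf in CD8 cells of the resistant library at 290 CPM, and fibroblasts lie below 2 CPM for every member.

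CD4 cells had a member UMI in 6 of 53 cells (11.3%, 4.27 to 23.0) of the resistant and 10 of 195 cells (5.13%, 2.49 to 9.23) of the sensitive library, beside 11.7% and 4.86% of CD8 cells. After thinning it was 3 of 53 (5.66%) and 6 of 194 (3.09%), beside 6.65% and 2.05%. Their summed level was lower than in CD8 cells, at 143 against 778 CPM and 98.1 against 248 CPM. Gzmc was counted at 32 UMIs in 6 of 53 cells of the resistant library (143 CPM) and 66 UMIs in 8 of 195 cells of the sensitive library (52.2 CPM). Gzme was at 0 UMIs in the resistant library, which allows up to 13.4 CPM, and at 46 UMIs in the sensitive library, in 2 cells, of which 1 held 45. Gzmf and Gzmg were at 0 UMIs in CD4 cells of both libraries. The other Cd3e+ cells, which met none of the gates above, had 573 member UMIs in 20 of 250 cells (300.4 CPM) in the resistant and 55 in 6 of 370 cells (21.5 CPM) in the sensitive library. Cd8b1 was found in 53.6% and 46.2% of them. Regulatory and gamma-delta T cells together gave 0 member UMIs in the resistant and 2 in the sensitive library. With 11 and 17 such cells in the resistant library, 0 cells with a UMI allow shares of up to 27.3% and 17.6% of cells with a UMI at this depth.

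Fibroblasts, where free RNA of other cells can be counted, had low levels of all members. They gave 35 member UMIs in 15 of 538 cells of the resistant library (3.87 CPM) and 30 in 10 of 749 cells of the sensitive library (2.45 CPM), at the greater depth per cell given above. Gzme was an exception in its proportion, with 16 and 22 of those UMIs, in 5 and 7 cells, against 15 and 4 for Gzmc. A single fibroblast of the sensitive library held 14 of the Gzme UMIs. In CD8 cells Gzmc UMIs outnumbered Gzme UMIs in both libraries, but in the sensitive library only through the cell with 684 Gzmc UMIs, without which there were 100 of Gzmc against 130 of Gzme. The source of the UMIs in fibroblasts was not tested.

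All 5 members were higher in CD8 cells of the resistant library. The ratio of resistant to sensitive CPM was 2.38 for Gzmc (2.20 to 2.58), 2.84 for Gzmd (2.45 to 3.32), 4.04 for Gzme (3.35 to 4.90), 3.70 for Gzmf (3.37 to 4.07) and 20.5 for Gzmg (12.1 to 37.9). Single cells weighed on each of these ratios. Without the sensitive cell with most UMIs of the member they were 18.6 for Gzmc, 8.06 for Gzmd, 14.97 for Gzme, 5.86 for Gzmf and 95.6 for Gzmg, and without such a resistant cell 1.98, 1.94, 3.00, 3.35 and 9.25 in the same order. Without the top 1% of CD8 cells of each library they were 9.73 for Gzmc, 8.77 for Gzmd, 29.2 for Gzme and 15.2 for Gzmf, and Gzmg was left with 0 UMIs in the sensitive library. Thus 5 of 5 members were at least 2-fold higher, beside a background of 1.47% of 8903 genes with at least 100 UMIs, and nothing is read from this because the members were chosen on this contrast. The median gene had a ratio of 0.923. Summed over members, the level was 778 CPM in the resistant and 248 CPM in the sensitive library, a ratio of 3.14 (2.98 to 3.31), or 3.10 without the barcodes found in both libraries. Granzyme C to G transcripts per CD8 cell and the number of CD8 cells that carry them both enter this ratio.

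The 2 parts were therefore counted apart. Without thinning, CD8 cells with a member UMI held a mean of 42.3 member UMIs in the resistant and 26.9 in the sensitive library. The median was 5 and 2, at a median depth of 7315 and 6081 UMIs. With every cell reduced by random draw to 1000 UMIs (thinned), 104 of 1563 CD8 cells of the resistant library (6.65%, 5.47 to 8.00) and 26 of 1268 of the sensitive library (2.05%, 1.34 to 2.99) had a member UMI, a ratio of 3.25 (2.13 to 4.96, log-scale interval) and 2.75 without the shared barcodes. Without thinning the shares were 11.7% and 4.86%. No thinned fibroblast had a member UMI, in 537 and 745 cells, which allows shares of cells with a UMI at this depth of up to 0.559% and 0.403%. Among single members the thinned share was higher in the resistant library for Gzmc (3.58% against 0.789%), Gzme (1.34% against 0.315%) and Gzmf (4.16% against 0.868%). Gzmd, at 1.09% against 0.789%, had a ratio of 1.38 (0.634 to 3.00). Without thinning the share was 2.30% against 0.941%, a ratio of 2.44 (1.28 to 4.67). Gzmg was found in 5 and 1 thinned cells, too few to compare.

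Most other cytotoxic genes did not follow the members between libraries in CD8 cells. Prf1, which encodes perforin, had a resistant over sensitive ratio of 0.581 (0.541 to 0.623), Gzmb 0.562 (0.546 to 0.580), Gzmk 0.423 (0.390 to 0.458) and Ifng 0.492 (0.463 to 0.522). Gzma, a tryptase-type granzyme encoded on another chromosome, was higher at 1.57 (1.53 to 1.62). Of 22 listed cytotoxic genes, 20 had at least 100 UMIs, of which 1 was at least 2-fold higher and 2 at least 2-fold lower (background 1.13% lower), and their median ratio was 0.791. The gene of that list that was over 2-fold higher, Serpinb9b, encodes an intracellular serine protease inhibitor and rested on 85 and 20 UMIs (ratio 2.87, 1.75 to 4.94). Of 24 listed regulator and state genes, 0 were at least 2-fold higher and 2 at least 2-fold lower.

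In NK cells Gzmc, Gzmd, Gzme and Gzmg were again higher in the resistant library, and the direction of Gzmf depended on single cells. The ratio was 5.31 for Gzmc (4.90 to 5.76), 8.11 for Gzmd (6.21 to 10.7) and 11.1 for Gzme (6.92 to 18.7), while Gzmf, at 26 and 53 UMIs in 3 and 2 cells, gave 0.750 (0.450 to 1.22). It was 9.82 (3.41 to 38.7) without the sensitive NK cell that held 49 of the 53 UMIs, 0.189 (0.0665 to 0.440) without the resistant NK cell that held 20 of the 26, and 2.48 (0.588 to 11.9) without both. Gzmg was counted at 30 UMIs in 3 cells against 1 UMI. The background of genes at least 2-fold higher was 1.02%, and of genes at least 2-fold lower 3.65%, of 1369 genes with at least 100 UMIs in NK cells. Thinned to 1000 UMIs, 21 of 50 (42.0%) and 15 of 94 (16.0%) NK cells had a member UMI, a ratio of 2.63 (1.49 to 4.64). Of the listed cytotoxic genes, 12 had at least 100 UMIs in NK cells, of which 1 was at least 2-fold higher and 0 at least 2-fold lower, with a median ratio of 0.968 beside 0.951 over all genes. The ratio was 2.81 for Gzma (2.58 to 3.07), 1.63 for Gzmb (1.47 to 1.81) and 1.49 for Prf1 (1.19 to 1.86), but 0.810 for Nkg7 (0.741 to 0.884) and 0.680 for Serpinb9 (0.49985 to 0.917). Ifng, with 10 and 80 UMIs, was at 0.191 (0.0882 to 0.370). The NK gate took 50 cells of 3091 in the resistant and 94 of 3448 in the sensitive library, so a small number of cells carried these values.

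A few cells held most of the transcripts. In the resistant library 16 CD8 cells, the top 1%, held 70.1% of member UMIs of CD8 cells, and in the sensitive library 13 cells held 92.4%. The highest CD8 cell of the resistant library carried 1362 member UMIs of its 24752 (5.50%), spread over 417 of Gzmc, 286 of Gzmd, 149 of Gzme, 276 of Gzmf and 234 of Gzmg. Another, with 5540 UMIs in all, carried 547 (9.87%), with Gzmg at 150 and Gzmd at 146. In both of these cells all 5 members were present.

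In the sensitive library 3 CD8 cells held 77.9% of member UMIs of CD8 cells. The first carried 684 UMIs of Gzmc and none of the other members, the second 441 UMIs with 195 of Gzmf and 138 of Gzmd, and the third 174 with 163 of Gzmf. The ratio of summed CPM therefore leaned on them. With the top 1% of CD8 cells left out of each library the summed ratio rose to 12.5 (10.4 to 15.1), because the sensitive library lost more of its UMIs. Cells with at least 10 member UMIs numbered 72 of 1567 (4.59%) in the resistant and 16 of 1275 (1.25%) in the sensitive library. In NK cells, 3 cells held 58.3% and 56.7% of member UMIs, and the highest carried 862 and 226.

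**Figure D2:**
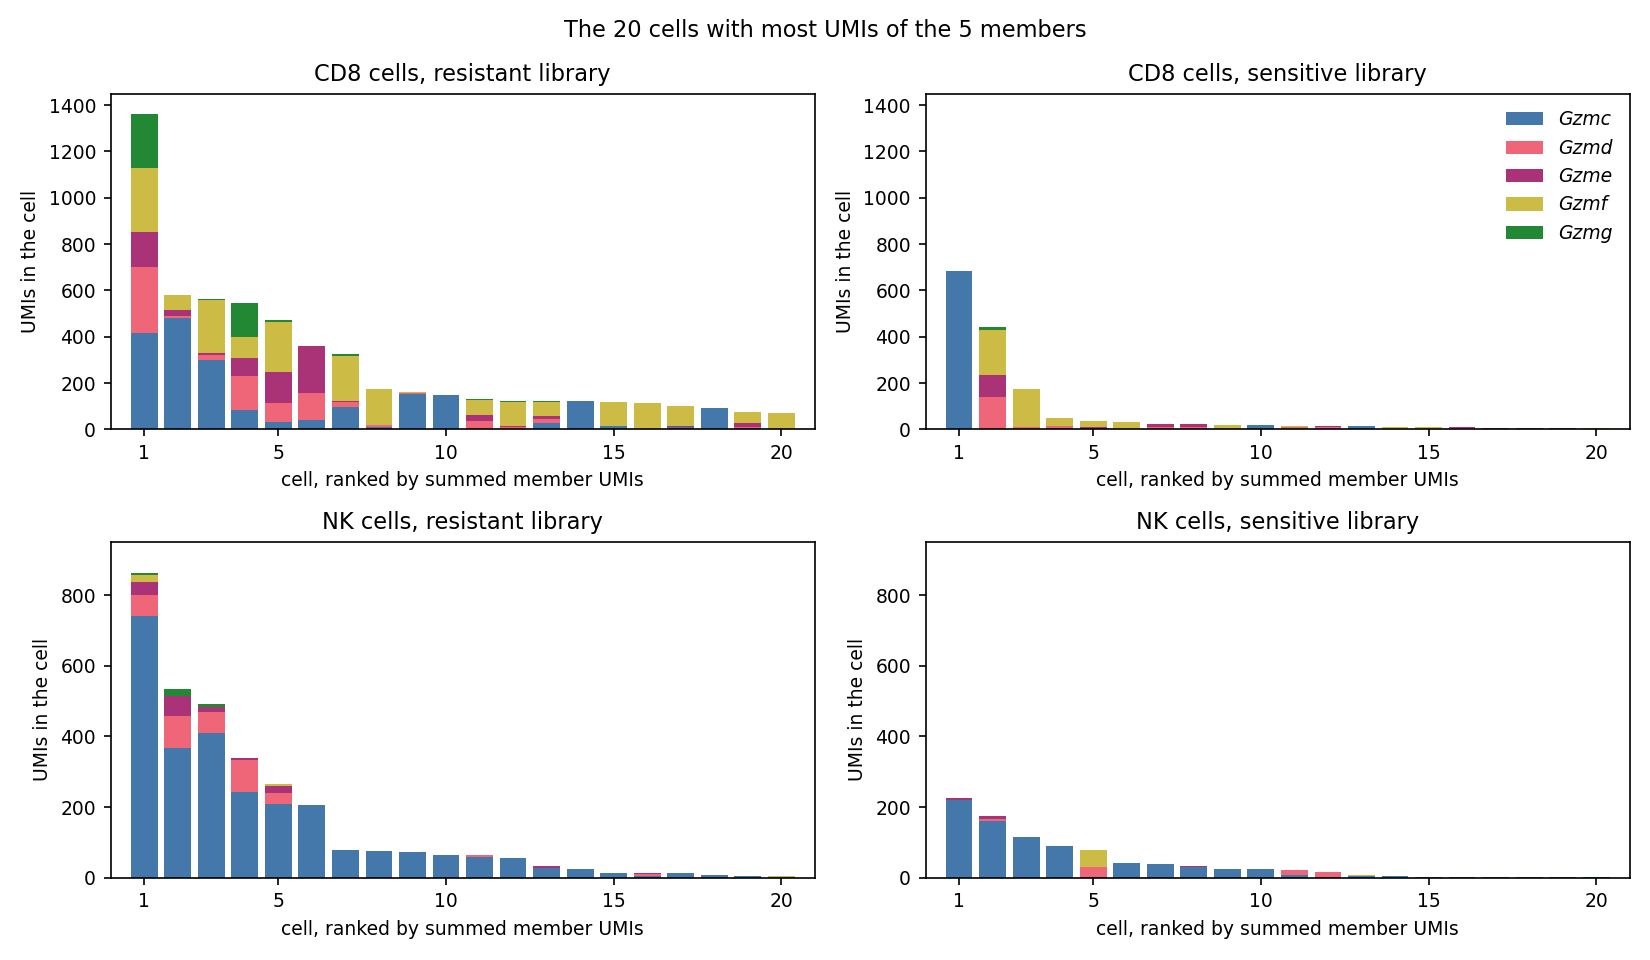
UMIs of the 5 members, stacked by gene, in the 20 CD8 cells (top) and NK cells (bottom) with the most member UMIs in each library; the vertical axis is UMIs in the cell and is the same for both libraries within a lineage. The highest CD8 cell of the resistant library holds 1362 UMIs of all 5 members and the highest of the sensitive library 684 UMIs of Gzmc alone, other CD8 cells of both libraries hold several members or 1, and most NK cells shown hold mainly Gzmc.

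The cells with most member transcripts did not all share a T cell receptor beta variable gene. In the resistant library 62 of the 72 CD8 cells with at least 10 member UMIs had a leading Trbv gene, and these were 13 different genes of 20 found in CD8 cells. Of the 16 such cells of the sensitive library 15 had one, of 7 different genes. The other cells had none or a tie. Single cells still weighed on the sums. Trbv2 cells, 60 in number, held 20.7% of member UMIs of the resistant library, and Trbv14 cells, 177 in number, held 45.1% of those of the sensitive library. By share of cells, Trbv29 cells of the resistant library (20 of 98, 20.4%, 12.9 to 29.7) and Trbv2 cells (9 of 60, 15%, 7.10 to 26.6) stood highest among Trbv genes leading in at least 30 cells, beside 11.7% of all CD8 cells. Both were singled out after their values were seen. Trbv genes do not identify clones, and no clonotype was read.

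Within thinned CD8 cells of the resistant library, each member was found more often in cells with any other given member than in cells without it. In the sensitive library Gzme and Gzmg were not found in the 10 Gzmc+ cells. In thinned cells of the resistant library, 11 of 17 Gzmd+ cells (64.7%, 38.3 to 85.8) had a Gzme UMI against 10 of 1546 cells without Gzmd (0.647%). In the sensitive library it was 4 of 10 (40.0%, 12.2 to 73.8) against 0 of 1258. Gzmf was found in 13 of the 17 Gzmd+ cells of the resistant library (76.5%) and in 5 of 5 Gzmg+ cells. It was also found in 22 of 56 Gzmc+ cells of the resistant library (39.3%, 26.5 to 53.2) against 43 of 1507 without Gzmc (2.85%). In the sensitive library it was 1 of 10 against 10 of 1258. Of thinned CD8 cells with any member, 36 of 104 (34.6%, 25.6 to 44.6) and 6 of 26 (23.1%, 8.97 to 43.6) had at least 2 members, and the intervals overlapped.

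A member found alone was mostly Gzmc or Gzmf. Without thinning, 62 CD8 cells of the resistant library had Gzmc as their only member, 47 had Gzmf, 3 had Gzmd, 3 had Gzme and 0 had Gzmg. In the sensitive library the counts were 34, 13, 0, 0 and 0. All 12 and 2 Gzmg+ CD8 cells thus also had another member.

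Correlations across cells had the same shape. Over 1567 and 1275 CD8 cells (log1p of UMIs per 10000), Pearson r was 0.891 and 0.868 for Gzmd with Gzme, 0.702 and 0.495 for Gzmd with Gzmg, and 0.506 and 0.520 for Gzmd with Gzmf. Gzmc had r of 0.387 to 0.478 with the other members in the resistant library and 0.0409 to 0.121 in the sensitive library. In CD8 cells the pair with the highest r was also the pair with the most alike transcripts. Gzmc, the member least like the others, had the lowest r in CD8 cells of the sensitive library. Over NK cells Gzmd with Gzme had r of 0.896 and 0.367. In the sensitive library Gzmc with Gzme, at 74.0% identity, had the highest r of NK cells, 0.570. Correlated cells share a library and depth, and the part of reads assigned to the wrong copy was not tested.

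**Figure D3:**
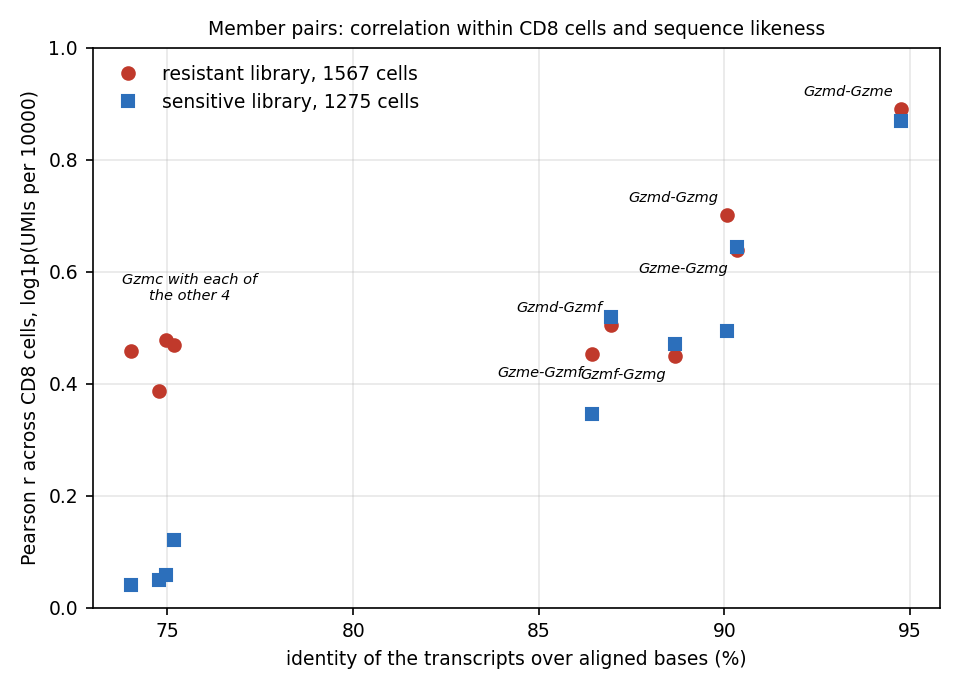
Pearson r of each pair of members across CD8 cells (vertical axis) against the identity of their transcripts over aligned bases (horizontal axis), for 1567 cells of the resistant (red circles) and 1275 cells of the sensitive library (blue squares). Gzmd with Gzme stands highest at 94.8% identity and r of 0.891 and 0.868, and the pairs of Gzmc lie at 74.0% to 75.2% identity.

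CD8 cells with a member UMI also carried more RNA of the main cytotoxic effectors. With 183 cells against 1384 in the resistant library and 62 against 1213 in the sensitive library, Gzmb was 5.59-fold (5.34 to 5.85) and 1.78-fold (1.68 to 1.88) higher, Gzma 4.18-fold (4.04 to 4.33) and 2.30-fold (2.15 to 2.46) higher, and Prf1 4.05-fold (3.65 to 4.49) and 2.96-fold (2.63 to 3.32) higher, as CPM after the members' own UMIs were left out of the totals. Serpinb9 and Serpinb6b, serine protease inhibitors that include an inhibitor of granzyme B, were 2.77-fold and 3.34-fold higher in the resistant library and 1.73-fold and 1.45-fold in the sensitive library, where the interval of Serpinb6b (0.974 to 2.09) held 1. Of 19 listed cytotoxic genes with at least 100 UMIs, 5 in the resistant and 2 in the sensitive library were at least 2-fold higher, beside a background of 0.513% of 7410 and 2.56% of 6448 genes. At least 2-fold lower were 0 and 1 of them, beside 2.32% and 5.04% of all genes. The list's median ratio was 0.953 and 1.03, beside 0.985 and 1.03 over all genes, so most of its genes did not move with the members. Srgn, the granule proteoglycan serglycin, was at 0.995 and 0.890, Nkg7, a granule membrane protein, at 0.849 and 0.861, and Gzmk at 0.953 and 0.676.

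Cells with a member were deeper, at a median of 7315 and 6081 UMIs against 4579.5 and 4090, and depth makes a UMI of any gene more likely to be found. Marker levels of other cell types in the same cells were mixed. The summed NK markers (4 genes) were at 133 CPM with and 126 CPM without a member in the resistant library and at 160 and 133 CPM in the sensitive library, and 4 and 3 of the 4 genes were found in a larger share of cells with a member. Their part in the differences was not tested. The summed macrophage or monocyte markers (4 genes) were lower with a member, at 111 against 200 CPM and at 5.15 against 186 CPM. Fibroblast markers were lower too, at 691 against 1851 CPM and 854 against 1463 CPM. By share of cells with a UMI, 5 of 5 fibroblast and 3 of 4 macrophage markers were more frequent with a member in the resistant library, for example Dcn at 11.5% against 4.26% and Lyz2 at 10.9% against 6.79%, and 3 of 5 and 1 of 4 in the sensitive library. Neutrophil markers went in opposite directions, at 276 against 194 CPM and at 3.44 against 123 CPM.

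Of the 24 listed regulator and state genes, 23 and 22 had at least 100 UMIs in CD8 cells. In each library 1 was at least 2-fold higher in cells with a member and 1 at least 2-fold lower. The background was 0.513% and 2.56% higher, and 2.32% and 5.04% lower. The list's median ratio was 1.01 and 0.887, beside 0.985 and 1.03 over all genes. Havcr2, which encodes the checkpoint receptor TIM-3, was 2.06-fold (1.73 to 2.45) and 1.80-fold (1.38 to 2.33) higher in cells with a member. Il2ra and Il2rb, chains of the interleukin-2 receptor, were 1.91-fold and 1.32-fold higher in the resistant library and 1.41-fold in each case in the sensitive library, where the interval of Il2ra (0.973 to 1.99) held 1. Pdcd1, which encodes PD-1, stood at 1.04 in both. The checkpoint receptor genes Lag3 and Tigit were lower, Lag3 at 0.815 and 0.894 (interval 0.773 to 1.03 in the sensitive library) and Tigit at 0.707 and 0.763. Tcf7, which encodes the stem-like T cell factor TCF-1, was lower at 0.269 (0.106 to 0.572) and 0.247 (0.0666 to 0.644), and Tox, which encodes a factor of exhausted T cells, was lower at 0.607 (0.498 to 0.735) and 0.625 (0.428 to 0.883). Mki67 and Top2a, made in dividing cells, were at 1.04 and 0.977 in the resistant but 1.83 and 2.20 in the sensitive library. By share of cells both were more frequent in the deeper cells with a member in both libraries. Mki67 was found in 25.1% against 15.1% and 19.4% against 10.6%, and Top2a in 27.3% against 22.7% and 32.3% against 15.9%. Without Mki67+ or Top2a+ cells the resistant over sensitive ratio of Gzmc fell from 2.38 to 1.49. The ratio rose from 2.84 to 11.6 for Gzmd, 4.04 to 34.2 for Gzme, 3.70 to 5.42 for Gzmf and 20.5 to 105 for Gzmg. Leaving out single cells moved these ratios too, as given above, and the part of dividing cells was not tested.

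**Figure D4:**
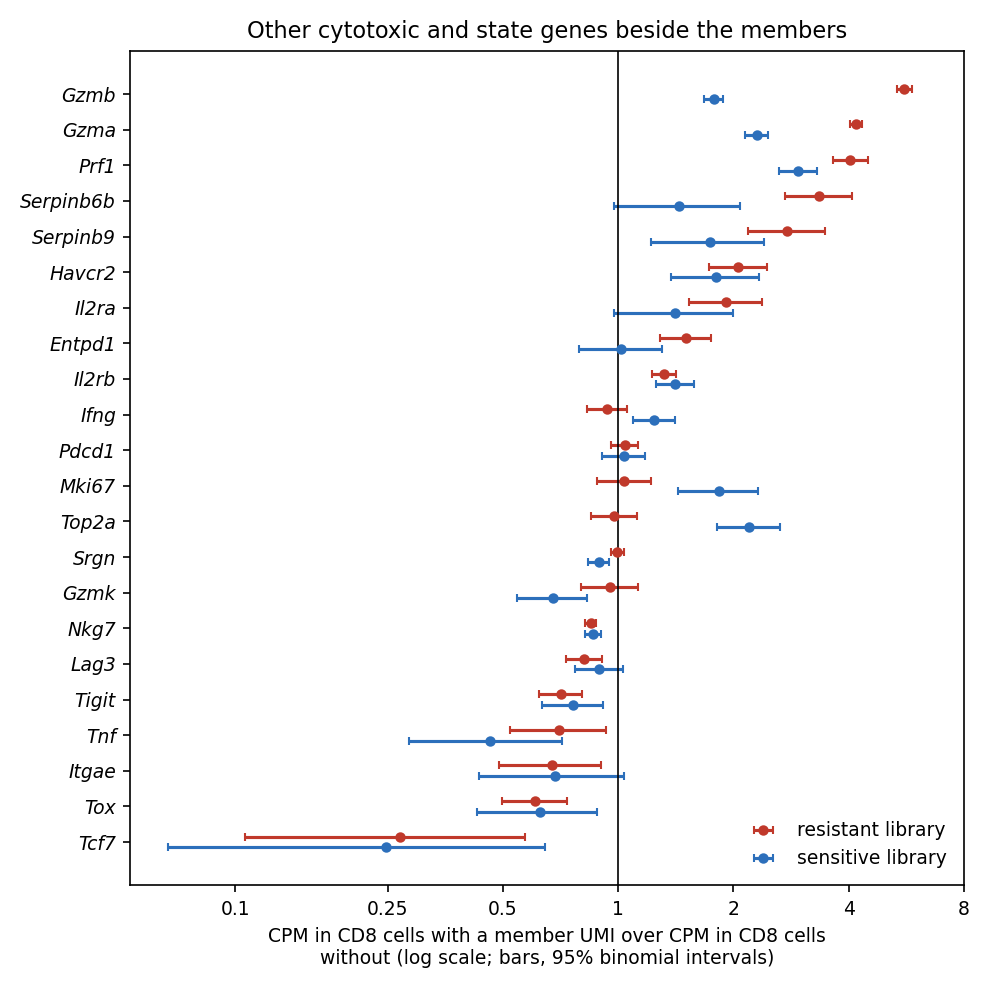
CPM in CD8 cells with a member UMI over CPM in CD8 cells without (horizontal log axis, with exact 95% intervals) for listed cytotoxic and state genes, in the resistant (red) and sensitive (blue) library. Gzmb, Gzma and Prf1 lie between 1.78 and 5.59, Pdcd1 and Srgn near 1, and Tox and Tcf7 below 1 in both libraries.

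Cells with Gzmc alone and cells with Gzmf but no Gzmc differed in other effector genes. In the resistant library 62 CD8 cells had Gzmc alone, 53 had Gzmf without Gzmc and 54 had both. Gzma was at 6760 CPM in cells with Gzmc alone, 1370 CPM in cells with Gzmf without Gzmc and 2856 CPM in cells with both. Prf1 was at 102, 355 and 695 CPM, and Havcr2 at 68.5, 140 and 125 CPM. Top2a was at 195, 70.0 and 174 CPM. In the sensitive library, with 34, 18 and 6 such cells, Gzma was at 2464, 153 and 269 CPM. Prf1 was at 441, 677 and 1758 CPM, and Havcr2 at 72.7, 207 and 184 CPM. Top2a was at 266, 196 and 156 CPM, and the interval of its Gzmf over Gzmc ratio (0.422 to 1.23) held 1. So in both libraries Gzma was higher with Gzmc alone, and Prf1 and Havcr2 with Gzmf without Gzmc. Gzmb went opposite ways, at 2040 against 1563 CPM in the resistant and 1667 against 4114 CPM in the sensitive library. The groups were defined by the members' own UMIs, and a cell with few UMIs of a member can be missed. Groups compared share a library, and the weight of single cells was not tested.

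By the correlation of single genes with the summed members across CD8 cells, taking the lower r of both libraries among 7007 genes found in at least 5% of cells of each, the 10 most alike genes were Spp1, Havcr2, Gzmb, Upp1, Fcrl6, Tnfrsf9, Fcer1g, Myo10, Pglyrp1 and Prf1. All r were modest. Spp1, which encodes the secreted phosphoprotein osteopontin, had r of 0.344 and 0.239 and was 6.18-fold (5.85 to 6.52) and 5.20-fold (4.80 to 5.63) higher in cells with a member. Gzmb had r of 0.393 and 0.157. Tnfrsf9, the costimulatory receptor 4-1BB, had r of 0.191 and 0.144, and Upp1, uridine phosphorylase, 0.155 and 0.257. The median over all genes was 0.00836 and 0.00893. Macrophages also make osteopontin, and their part in the Spp1 value was not tested.

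The whole-tumor libraries were made with another feature list and are not set against the T cell libraries. Their labels disagree in part, since the library titled resistant names a sensitive tumor in its source field, so they are called by their titles. In the resistant-labelled library 1195 member UMIs were counted in 24 of 263 cells, of which 777 were Gzmc, 227 Gzmf, 102 Gzmd, 48 Gzmg and 41 Gzme. Of these UMIs 957 lay in 2 of 4 cells with Ncr1 and no Cd3e, with 663 of Gzmc and 185 of Gzmf, and 103 lay in 3 of 11 Cd3e+ cells, with 87 of Gzmc and 16 of Gzmf. The 185 Gzmf UMIs were in a single Ncr1+ cell, so most Gzmf UMIs of that library lay outside the Cd3e+ cells. In the sensitive-labelled library no member UMI was counted in 269 cells with 533320 UMIs, which allows up to 5.63 CPM. That library held 1 Cd3e+ cell and 3 cells with Ncr1 and no Cd3e. These 3 cells had 0 member UMIs in 9634, which allows up to 311 CPM, so the members were hardly measurable in its lymphocytes. In the control-labelled library, from saline-treated mice, 35 member UMIs were counted in 5 of 488 cells, and 31 of them, 30 of Gzmc, lay in a single Ncr1+ cell without Cd3e. The 41 Cd3e+ cells of that library had 0 member UMIs in 94654, which allows up to 31.7 CPM.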

How the data were processed

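Cells were profiled with a droplet 3′ kit. The authors deposited raw UMI counts per gene and barcode, aligned to mm10, made per the file headers with Cell Ranger 6.0.0 (T cell libraries) or 3.0.1 (whole tumor). The barcode and feature files hold names only.

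The members and all gene lists were chosen with earlier results of these data known. T cell library barcodes needed 500 detected genes or more and a mitochondrial share of no more than 10%, and those with the highest Scrublet scores (scanpy 1.11.5), 0.8% per 1000 barcodes, were removed as doublets (159 in the resistant and 112 in the sensitive library). Fibroblasts needed at least 20 UMIs of Col1a1, Col1a2, Col3a1 and Dcn together. UMIs were summed over gated cells as CPM. With 1 library per group no test was made: shares have Clopper-Pearson, ratios exact conditional binomial 95% intervals (scipy 1.17.1). The ratio intervals were run on simulated independent counts. These lack the gathering of UMIs in few cells, so that run could not check the intervals for such data. Shares were taken after thinning to 1000 UMIs. Genes named were the members, 22 cytotoxic and 24 regulator or state genes, the 10 genes most correlated with the members, and Trbv genes leading in at least 30 CD8 cells. For a count of 0, 3 counts gave the limit. Alternatives were no or a 5% mitochondrial limit, at least 200 genes, doublets kept, a wider CD8 gate, cycling cells or the highest cells left out, other scalings, background subtraction and other thinning.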

Additional observations from a re-analysis of the deposited data

Results flagged for a closer look

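Gzme was higher in the resistant library in CD8 and NK cells but was counted only in the sensitive library in CD4 cells. Its resistant over sensitive CPM ratio was 4.04 in CD8 cells and 11.1 in NK cells. In CD4 cells the ratio was 0, with an interval up to 0.471, since the resistant library had 0 UMIs in 53 cells and the sensitive library 46 UMIs in 2 of 195 cells. A single cell held 45 of these 46 UMIs, so no direction is read from CD4 cells, and the difference between lineages was not tested.

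Member UMIs were also found in barcodes that the mitochondrial limit removed and that entered only the setting without that limit. These barcodes held 612 member UMIs at 118 CPM in the resistant library (1618 barcodes, 57 with a member UMI) and 101 at 258 CPM in the sensitive library (123 barcodes, 5 with a member UMI), above the 0.581 and 7.67 CPM that 3 UMIs would give. Kept cells stood at 426 and 95.0 CPM, so the order of the libraries is the other way round in the removed barcodes. With no mitochondrial limit the ratio of the summed members was 2.52.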

How the results depend on the processing

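No paired analysis was possible because each group had 1 library. For 7 resistant over sensitive ratios of CD8 cells, 87 values were recomputed and none crossed 1. The members were chosen on this contrast, so nothing is read from the kept direction. The other 4 results are percentages. Ratios of NK cells were not recomputed under these settings, and that of Gzmf went from 0.189 to 9.82 with single NK cells left out. The summed resistant over sensitive ratio of 3.14 became 3.40 when scaled by the median gene ratio, 4.15 as a mean over single cells, 12.5 without the top 1% of CD8 cells, 4.38 without the CD8 cell with most member UMIs in each library, 4.17 without the Trbv gene with most member UMIs in each library (Trbv2 and Trbv14), 2.52 with no mitochondrial limit and 3.59 without Mki67+ or Top2a+ cells. Its other 6 alternatives stayed within its interval, as did all 10 for the share of CD8 cells with a member (2.40 to 4.29). The share of member UMIs lying in CD8 cells moved in the resistant library from 65.5% to 63.4% with a 5% mitochondrial limit, 72.5% without cycling cells and 36.2% without the top 1% of CD8 cells (a setting chosen after seeing the data, as were leaving out shared barcodes and single cells), and in the sensitive library from 58.7% to 66.4%, 61.7% and 9.71% under the same settings and 64.2% with at least 200 genes. The share of member-positive cells with at least 2 members moved in the resistant library from 34.6% to 23.3% with no mitochondrial limit. Over these settings single members ranged from 1.49 to 15.9 for Gzmc, 1.82 to 11.6 for Gzmd, 3.13 to 34.2 for Gzme, 2.87 to 15.2 for Gzmf and 9.22 to 105 for Gzmg, with the top of Gzmc reached without the CD8 cell with most member UMIs in each library. Leaving out only the sensitive cell with 684 Gzmc UMIs gave 18.6 for Gzmc. Gzmg gave no ratio without the top 1% of CD8 cells, since the sensitive library then held 0 UMIs. Few positive cells limit all of these values, and libraries without replicates cannot separate response to DOX from the library.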
